A study of Mus musculus with 47 samples.

Results

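The 10 genes described here encode glutathione transferases, glutathione peroxidases and an enzyme of glutathione breakdown. They are Gsta4, Gstm1, Gstt1 and Gsto1, Mgst1 and Mgst2, Gpx1, Gpx4 and Gpx7, and Ggct. Each was read from the probe sets that carry its symbol and no other, and where there were several, from the one whose signal averaged highest across the 47 arrays. They are 10 of the 12393 genes that the arrays name in this way, and all 10 were among the 8675 genes tested after the 30% with the lowest mean signal had been left out.

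The cells were JB6, a mouse epidermal line used in work on tumour promotion, labelled as progenitor cells. One line stably carried a short hairpin RNA (shRNA), delivered by retrovirus, that targets Anxa2, the gene for annexin A2, and the control line carried the vector alone, both after puromycin selection. There was 1 line of each kind, so differences between the lines hold anything else that separates them and not only the loss of Anxa2. Each line was collected at 2, 6 and 24 h after 10 cGy or after 100 cGy of X-rays, and at 2 and 24 h after sham exposure, which is called untreated here. Vector cells at 24 h after 10 cGy have 2 arrays and the other 15 groups have 3 each, 47 in all, and untreated cells at 6 h are not among them. The comparisons address what sets the shRNA line apart and how both lines respond to radiation over time.

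Glutathione transferases join the thiol of glutathione to reactive electrophiles, which can then be exported. Cytosolic members (alpha, mu, theta and omega classes) are soluble, whereas Mgst1 and Mgst2 belong to a separate family of membrane proteins that also includes enzymes of leukotriene and prostaglandin synthesis. Glutathione peroxidases reduce peroxides: Gpx1 and Gpx4 carry selenocysteine, and Gpx7 is an endoplasmic reticulum form that uses cysteine. Ggct, gamma-glutamylcyclotransferase, acts on gamma-glutamyl dipeptides in the breakdown of glutathione. Many genes of this kind are known targets of the factor Nfe2l2 (NRF2), which binds the antioxidant response element, and some of the aryl hydrocarbon receptor Ahr, which binds the xenobiotic response element.

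Promoter windows, from 250 bases before to 50 bases after an annotated start, were available from RefSeq (GRCm38.p6) for 9 of the 10 genes. Windows of 4 genes are shown because these genes set the extremes of the results: Mgst2 and Gpx7 differed most between the lines, and Mgst1 and Ggct moved in opposite directions over time. Capitals mark matches on either strand to the core of the antioxidant response element, TGACNNNGC, and to the core of the xenobiotic response element, GCGTG. All are written 5′ to 3′ on the strand of the gene, which is plus for Mgst2 (chr3:51660929-51661228) and Mgst1 (chr6:138140277-138140576) and minus for Gpx7 (chr4:108406664-108406963) and Ggct (chr6:54992818-54993117). The Mgst2 window surrounds a start inside the span of the annotated gene, which runs from 51636912 to 51682675 on chromosome 3, and these data do not show whether the cells use that start.
Mgst2: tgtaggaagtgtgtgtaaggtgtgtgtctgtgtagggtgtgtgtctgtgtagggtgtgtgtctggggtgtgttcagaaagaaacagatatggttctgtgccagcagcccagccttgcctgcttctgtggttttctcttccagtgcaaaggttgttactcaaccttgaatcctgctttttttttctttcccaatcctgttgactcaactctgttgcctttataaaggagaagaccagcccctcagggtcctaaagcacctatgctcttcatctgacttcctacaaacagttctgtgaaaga
Gpx7: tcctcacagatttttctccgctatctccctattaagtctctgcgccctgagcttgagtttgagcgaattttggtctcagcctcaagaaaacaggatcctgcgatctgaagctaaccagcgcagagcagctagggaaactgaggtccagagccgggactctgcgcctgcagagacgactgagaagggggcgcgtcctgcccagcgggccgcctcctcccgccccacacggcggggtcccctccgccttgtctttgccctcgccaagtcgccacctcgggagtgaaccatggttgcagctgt
Mgst1: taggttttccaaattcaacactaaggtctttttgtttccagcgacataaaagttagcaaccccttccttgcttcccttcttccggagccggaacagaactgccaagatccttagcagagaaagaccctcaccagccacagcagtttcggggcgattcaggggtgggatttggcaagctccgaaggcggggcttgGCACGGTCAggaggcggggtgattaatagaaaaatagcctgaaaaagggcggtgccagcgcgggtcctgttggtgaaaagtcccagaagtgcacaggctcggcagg
Ggct: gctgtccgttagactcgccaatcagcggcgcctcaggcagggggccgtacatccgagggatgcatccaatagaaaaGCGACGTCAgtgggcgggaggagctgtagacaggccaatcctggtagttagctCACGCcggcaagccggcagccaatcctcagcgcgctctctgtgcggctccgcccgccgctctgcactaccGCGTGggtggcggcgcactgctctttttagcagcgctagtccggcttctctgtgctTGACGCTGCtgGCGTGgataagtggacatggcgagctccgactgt
No capitals stand in the Mgst2 and Gpx7 windows, so neither core is spelled in these 300 bases. Mgst1 has 1 match to the antioxidant core, 56 bases before the start, and Ggct has 2 such matches, 1 of them 174 bases before the start and the other after it, along with 3 matches to the xenobiotic core. No match to one core overlaps a match to the other. Over all 32851 windows in the RefSeq table, 12.39% hold the antioxidant core and 32.39% the xenobiotic core. Among the 14 windows of the 9 genes, 2 hold the antioxidant core (Mgst1 and Ggct) and 7 the xenobiotic core (windows of Gstm1, Gpx1, Gpx4 and Ggct). Some windows of Gstm1 and of Gpx4 overlap and share a match, so by gene the counts are 2 of 9 for the antioxidant core, against 13.99% of all genes in the table, and 4 of 9 for the xenobiotic core, against 35.15%. Mgst2 has 0 CpG dinucleotides in its window and Ggct has 28, against a median of 7 over all windows. These matches describe the letters in the windows and were not tested for binding.

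Anxa2 itself was lower in the shRNA line by 1.55 ± 0.06 (SE) on the log2 scale in untreated cells, at 34.2% of the vector level, whereas the labels state a loss of over 95% by other methods. The arrays give probe set signals on the log2 scale as summarised by RMA, and their number limits the precision of every value. A signal under 4.35, the mean below which genes were left out, is treated as near the bottom of the scale. Of 11 mesenchymal markers 10 were above that limit in both lines, while of 12 epithelial markers 3 were above it in vector and 4 in shRNA cells, with Cdh1, Epcam and Krt18 below it. The summed epithelial level was 8.53 to 9.53 in vector and 8.97 to 9.58 in shRNA arrays, and Krt14 had a mean of 3.84 in vector and 6.57 in shRNA cells. Itga6, with means of 8.58 and 8.43, had the highest signal of the 12, and Krt5 and Krt8 were also above the limit in both lines. Leukocyte markers were above the limit for 2 of 4 (Lyz2 and Cd3e) and endothelial markers for 1 of 3 (Kdr) in both lines, with Ptprc, Pecam1 and Cdh5 below it. The vector arrays numbered 3 at 2 h, 1 each from untreated, 10 cGy and 100 cGy cells, lay away from their groups, at -2.37 to 1.75 on the second principal component against -19.56 to -16.91 for the other 6 of that time. The signal difference between the 3′ and 5′ Gapdh control probe sets, a sign of RNA integrity, was raised to between 0.31 and 1.06 in 4 arrays. These were vector untreated 2 h replicate 3, shRNA untreated 2 h replicate 1, shRNA 100 cGy 2 h replicate 2 and shRNA 10 cGy 6 h replicate 1. Where leaving such arrays out ended a call, both values are given.

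**Figure D1:**
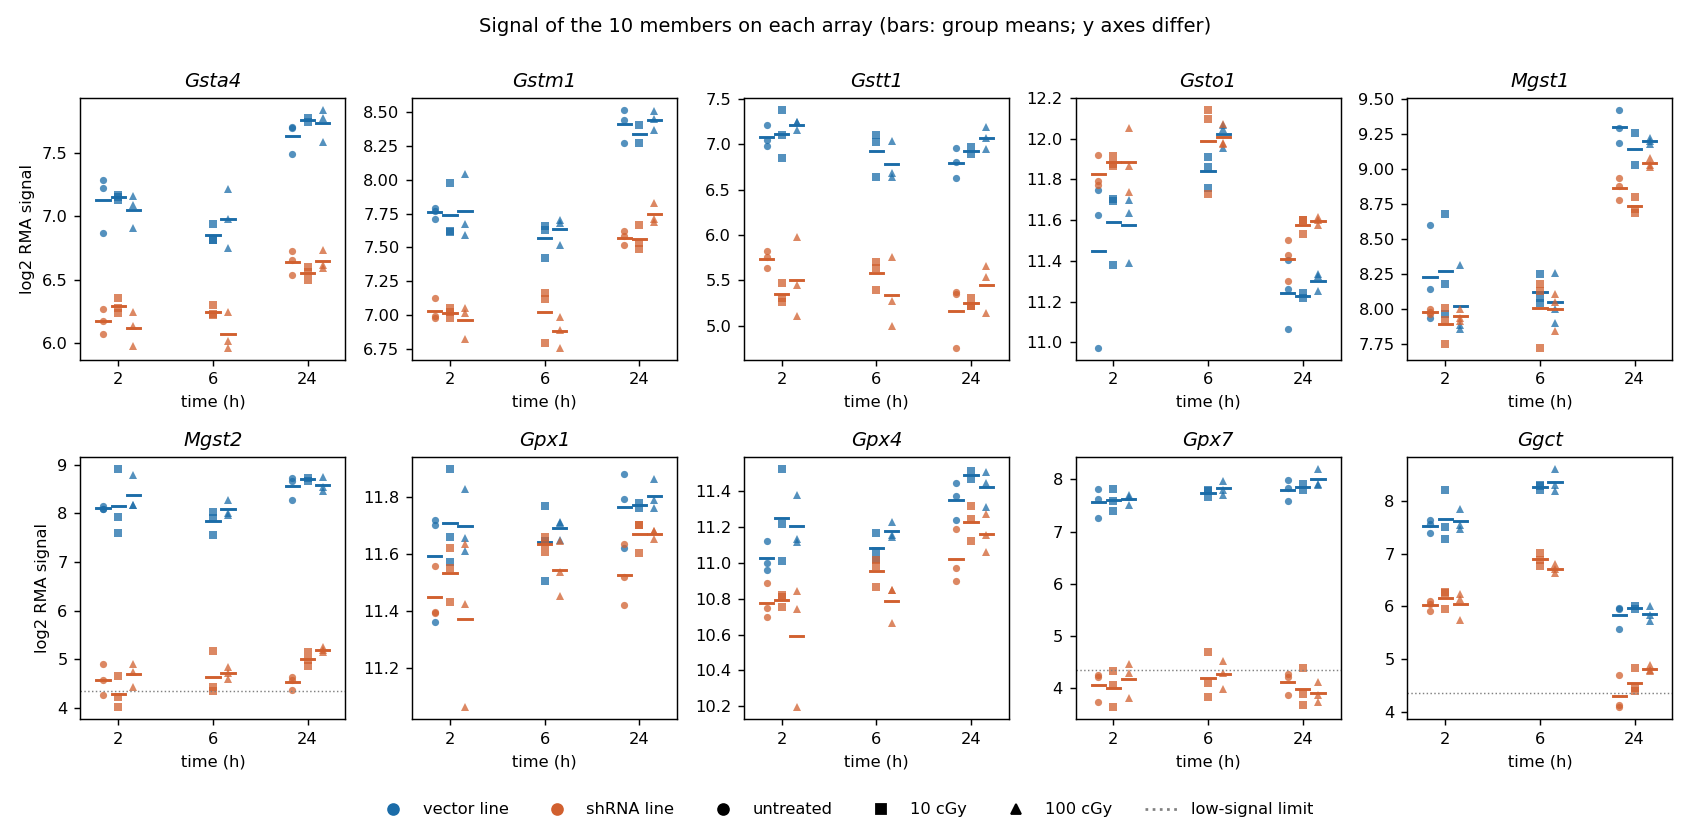
Signal of the 10 genes on each of the 47 arrays, with time on the x axis in hours and log2 RMA signal on the y axes, which differ between genes. Points are arrays, horizontal bars are group means, colours are the lines, symbols are the doses, and the dotted line is the low-signal limit of 4.35; vector and shRNA points are fully separated for Gsta4, Gstt1, Mgst2 and Gpx7.

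In untreated cells, with the 2 and 24 h arrays pooled, 9 of the 10 genes were lower and 1, Gsto1, was higher in the shRNA line than in the vector line (adjusted p under 0.05, the rule for every call here). The background is wide: 48.2% of all tested genes were called in this comparison, 24.1% higher and 24.1% lower. In irradiated cells, which are separate arrays of the same lines (18 shRNA and 17 vector), again 9 of the 10 genes were lower and Gsto1 was higher, against 64.8% of all tested genes called. The median difference of the 10 genes in untreated cells was -0.88, compared with 0.02 over all tested genes. The 10 genes were chosen with earlier results of these data known, so these counts and this median only describe them. Both counts include Gpx7, which passed the filter on low signal only through its vector arrays and so could only be called lower. Sizes ran from more than 10-fold for Mgst2 and Gpx7 to less than 0.5 on the log2 scale for Mgst1, Gpx4, Gpx1 and Gsto1.

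Gsta4, an alpha class transferase known for conjugating the lipid peroxidation product 4-hydroxynonenal, read 7.29, 7.22 and 6.87 in untreated vector cells at 2 h and 7.71, 7.49 and 7.70 at 24 h. In untreated shRNA cells it read 6.17, 6.07 and 6.27 at 2 h and 6.73, 6.66 and 6.54 at 24 h. Every shRNA array was below every vector array, over all doses and times as well as in untreated cells. The difference was -0.98 ± 0.07 in untreated cells, which is 50.9% of the vector level (adjusted p = 3.78e-14), and -0.94 ± 0.04 in irradiated cells.

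Gstm1, a mu class transferase, read 7.71, 7.77 and 7.79 at 2 h and 8.44, 8.27 and 8.52 at 24 h in untreated vector cells, and 6.98 to 7.12 at 2 h and 7.62, 7.58 and 7.52 at 24 h in untreated shRNA cells. The lines did not overlap in untreated cells, and in irradiated cells the highest shRNA array (7.83) passed the lowest vector array (7.42), which were taken at different times. The shRNA level was lower by -0.78 ± 0.07 on the log2 scale in untreated and by -0.72 ± 0.04 in irradiated cells. Gstm1 has 4 probe sets with untreated line differences of -0.78, -0.86, -0.52 and -0.26, and a contribution of other mu class genes to these signals was not tested.

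Gstt1, a theta class transferase, read 7.05, 7.22 and 6.98 at 2 h and 6.80, 6.63 and 6.96 at 24 h in untreated vector cells. In untreated shRNA cells it read 5.64, 5.83 and 5.75 at 2 h and 5.35, 5.37 and 4.76 at 24 h. Over all conditions the highest shRNA array, 5.98, stayed below the lowest vector array, 6.63. The line difference was -1.49 ± 0.13 in untreated cells, or 35.6% of the vector level (adjusted p = 1.5e-12), and -1.59 ± 0.07 in irradiated cells.

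Gsto1, an omega class transferase with thioltransferase activity, was the only one of the 10 genes with a higher signal in the shRNA line. Untreated vector cells read 11.75, 11.63 and 10.97 at 2 h and untreated shRNA cells 11.77, 11.79 and 11.92, and at 24 h the values were 11.26, 11.06 and 11.41 against 11.43, 11.50 and 11.30. The lines overlapped at 24 h, and the vector array at 10.97 lay well below all others of its group. The difference was 0.27 ± 0.09 (adjusted p = 0.0102). Without that array, vector untreated 2 h replicate 3, it was 0.15 and not called (adjusted p = 0.0848), and it was also not called when only the compared groups were fitted (adjusted p = 0.076). In irradiated cells the difference was 0.23 ± 0.05 (adjusted p = 0.000208), and leaving out the 3 outlying vector arrays gave 0.20, still called.

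Mgst2, the microsomal transferase that can also conjugate leukotriene A4, had the largest fitted line difference of the 10 in untreated cells, while in irradiated cells that of Gpx7, which is near the bottom of the scale, was larger. Untreated vector cells read 8.09, 8.09 and 8.16 at 2 h and 8.66, 8.28 and 8.72 at 24 h. Untreated shRNA cells read 4.28, 4.57 and 4.90 at 2 h and 4.64, 4.38 and 4.57 at 24 h. Over all conditions vector arrays lay between 7.55 and 8.91 and shRNA arrays between 4.02 and 5.25, so that the lines were far apart in each condition. Of the 24 shRNA arrays, 3 were under the low-signal limit. The difference was -3.78 ± 0.16 in untreated cells, 13.7-fold (adjusted p = 6e-22), and -3.53 ± 0.09, 11.5-fold, in irradiated cells.

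Mgst1, the microsomal transferase that also has peroxidase activity, differed far less. Its untreated vector cells read 8.15, 7.94 and 8.60 at 2 h and 9.29, 9.19 and 9.42 at 24 h, and its untreated shRNA cells 8.00, 7.98 and 7.97 and then 8.87, 8.78 and 8.93. The lines overlapped at 2 h and were separate at 24 h. The difference was -0.34 ± 0.10 in untreated cells (adjusted p = 0.00478) and -0.20 ± 0.06 in irradiated cells (adjusted p = 0.00391). With the mean of both Mgst1 probe sets, of which the other has a mean of only 2.86, the untreated difference was -0.14 and was not called (adjusted p = 0.116), and the irradiated one was -0.12 and was still called.

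Gpx7, the endoplasmic reticulum peroxidase, was near the bottom of the scale in shRNA cells. Untreated vector cells read 7.63, 7.81 and 7.26 at 2 h and 7.84, 7.59 and 7.98 at 24 h, against 4.26, 3.73 and 4.22 and then 4.22, 3.87 and 4.26 in untreated shRNA cells. Of the 24 shRNA arrays 20 were under the low-signal limit, and none of the 23 vector arrays was. Set against that limit, Gpx7 was at least 10.1-fold lower in untreated and at least 10.7-fold lower in irradiated shRNA cells. The fitted difference was -3.59 ± 0.14 in untreated (adjusted p = 1.46e-22) and -3.68 ± 0.08 in irradiated cells. Gpx7, with a mean of 5.88 over all arrays, passed the filter on low signal only through its vector arrays. A gene kept in this way could only be called lower in shRNA cells.

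Gpx1, the abundant cytosolic selenoperoxidase, and Gpx4, which reduces phospholipid hydroperoxides, showed small differences. Gpx1 read 11.36 to 11.72 in untreated vector cells at 2 h and 11.39 to 11.56 in shRNA cells, and at 24 h 11.62 to 11.88 against 11.42 to 11.63, with overlap at both times. The untreated Gpx1 difference of -0.19 ± 0.07 (adjusted p = 0.0316) did not hold up well. It was not called after leaving out any of 7 of the 12 untreated arrays (shRNA 2 h replicates 1 and 2 and 24 h replicate 3, vector 2 h replicates 1 and 2 and 24 h replicates 1 and 3), with values from -0.18 to -0.16 and adjusted p of 0.0577 to 0.0949. Nor was it called after quantile normalization (adjusted p = 0.0562) or when only the compared groups were fitted (adjusted p = 0.072). In irradiated cells Gpx1 differed by -0.15 ± 0.04 (adjusted p = 0.00338).

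Gpx4 read 10.96 to 11.12 in vector and 10.70 to 10.89 in shRNA cells without treatment at 2 h, and 11.24 to 11.45 against 10.90 to 11.19 at 24 h. Its groups were separate at both times. The difference was -0.29 ± 0.08 in untreated cells (adjusted p = 0.00346) and -0.35 ± 0.05 in irradiated cells (adjusted p = 6.09e-08).

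Ggct read 7.57, 7.64 and 7.39 in untreated vector cells at 2 h and 5.95, 5.56 and 5.97 at 24 h. Untreated shRNA cells read 5.91, 6.04 and 6.10 at 2 h and 4.69, 4.13 and 4.08 at 24 h, with the last 2 arrays under the low-signal limit. At each time the shRNA arrays were below the vector arrays, although shRNA cells at 2 h overlapped vector cells at 24 h. The difference was -1.52 ± 0.12, or 34.8% of the vector level (adjusted p = 1.35e-13), and -1.43 ± 0.07 in irradiated cells. With the mean of both Ggct probe sets, of which the other has a mean of 4.21 and a line difference of 0.05 over both times and -0.16 at 24 h, it was -0.74 and was still called.

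**Figure D2:**
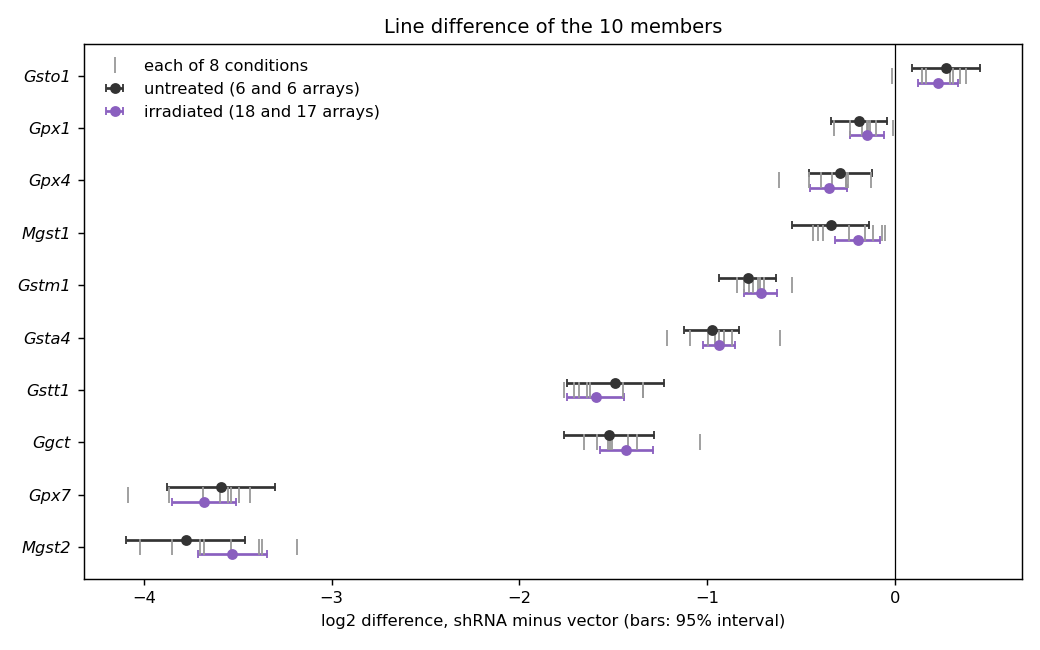
Log2 difference between the lines (x axis, shRNA minus vector) for each of the 10 genes (y axis). Circles with 95% interval bars give the fitted difference in untreated (6 and 6 arrays) and irradiated cells (18 and 17 arrays), and grey ticks give the difference in each of the 8 conditions; Mgst2 and Gpx7 lie beyond -3 and Gsto1 is the gene with most ticks above 0.

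The lines could be compared in 8 matched conditions. All 8 differences were below 0 for Gsta4, Gstm1, Gstt1, Mgst1, Mgst2, Gpx1, Gpx4, Gpx7 and Ggct, and 7 of 8 were above 0 for Gsto1; the Mgst1 difference at 6 h after 10 cGy turned from -0.11 to 0.03 without shRNA replicate 1, the array with the highest Gapdh difference, and that at 2 h after 100 cGy from -0.07 to 0.09 without vector replicate 3 and shRNA replicate 2. The arrays of the lines were fully separate in all 8 conditions for Gsta4, Gstm1, Gstt1, Mgst2, Gpx4, Gpx7 and Ggct, in 5 for Gsto1 and in 3 each for Mgst1 and Gpx1. The share of all tested genes with such separation was not computed, so these counts only describe the 10 genes. Between the lines 48.2% of all tested genes were called in untreated and 64.8% in irradiated cells. Mgst2 ranged from -3.18 ± 0.22 at 6 h after 10 cGy (-3.44 without that array) to -4.02 ± 0.22 in untreated cells at 24 h, and Ggct from -1.04 ± 0.17 at 24 h after 100 cGy to -1.65 ± 0.17 at 6 h after 100 cGy. Gpx4 ranged from -0.13 ± 0.12 at 6 h after 10 cGy to -0.61 ± 0.12 at 2 h after 100 cGy, where shRNA replicate 2, an array with a raised Gapdh difference, had the lowest Gpx4 signal of all arrays (10.19). Without it and the outlying vector replicate 3, that difference was -0.33. In untreated cells the line difference at 24 h was compared with that at 2 h: 0 of the 10 genes were called, against 5.69% of all tested genes, and the estimate farthest from 0 was that of Mgst2 (-0.49, 95% interval -1.12 to 0.14).

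Without radiation, 5 of the 10 genes changed between 2 and 24 h in vector cells (4 higher and 1 lower, against 25.9% of all tested genes called) and 6 changed in shRNA cells (3 higher and 3 lower, against 19.2%). Gsta4, Gstm1 and Mgst1 rose in both lines, and Ggct fell in both. The time after sham exposure is also time in culture, and the labels give no cell density. After irradiation, with both doses averaged, 7 genes changed from 6 to 24 h in vector cells (5 higher and 2 lower, against 39%) and 7 in shRNA cells (5 higher and 2 lower, against 39.2%). From 2 to 6 h, 2 genes were higher in vector cells (against 16.7%) and 1 in shRNA cells (against 21.5%), with no gene lower in either line.

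Mgst1 had the largest rise. In untreated vector cells it went from 8.15, 7.94 and 8.60 at 2 h to 9.29, 9.19 and 9.42 at 24 h, which is 1.07 ± 0.14 on the log2 scale or 2.10-fold (adjusted p = 3.12e-07). In untreated shRNA cells it rose by 0.88 ± 0.14, 1.84-fold (adjusted p = 1.7e-05). At 6 h after irradiation it read 8.08, 8.25 and 8.04 (10 cGy) and 7.90, 8.00 and 8.26 (100 cGy) in vector cells, close to its 2 h values, and by 24 h it read 9.03 to 9.25. The change from 6 to 24 h was 1.08 ± 0.11 in vector and 0.88 ± 0.10 in shRNA cells. With the mean of both probe sets these 4 rises were 0.42 to 0.54 and all were called.

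Gsta4 and Gstm1 followed the same course. Gsta4 rose from 2 to 24 h by 0.51 ± 0.10 in untreated vector cells and by 0.47 ± 0.10 in shRNA cells, and from 6 to 24 h after irradiation by 0.83 ± 0.08 and 0.44 ± 0.07. Gstm1 rose by 0.65 ± 0.11 and 0.54 ± 0.11 in untreated cells and by 0.79 ± 0.08 and 0.70 ± 0.07 from 6 to 24 h. Groups did not overlap in any of these 8 comparisons, and the share of all tested genes without overlap was not computed. At 6 h Gsta4 in vector cells was slightly below its 2 h level (-0.18 ± 0.07, adjusted p = 0.0774). That value was called after quantile normalization (-0.20, adjusted p = 0.0298), without the 3 outlying vector arrays (-0.22, adjusted p = 0.0316), without the 4 arrays of raised Gapdh difference (adjusted p = 0.0417), without vector 100 cGy 2 h replicate 3 (adjusted p = 0.0429) and without vector 100 cGy 6 h replicate 3 (-0.24, adjusted p = 0.0194). The mean of the 4 Gstm1 probe sets lowered the 6 to 24 h rise in shRNA cells to 0.39, which was still called.

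Ggct ran the other way, with a peak at 6 h. In vector cells it read 7.28, 7.51 and 8.20 at 2 h after 10 cGy and 7.48, 7.54 and 7.85 after 100 cGy, then 8.30, 8.28 and 8.22 and 8.30, 8.18 and 8.60 at 6 h, and 5.73 to 6.01 at 24 h. In shRNA cells it read 5.74 to 6.27 at 2 h, 6.62 to 7.02 at 6 h and 4.38 to 4.89 at 24 h. The rise from 2 to 6 h was 0.67 ± 0.12 in vector cells, where the vector array at 8.20 overlapped the 6 h arrays, and 0.70 ± 0.12 in shRNA cells, where the times were separate. The fall from 6 to 24 h was -2.40 ± 0.13 in vector cells, 5.28-fold, and -2.11 ± 0.12 in shRNA cells, 4.33-fold. In untreated cells the change from 2 to 24 h was -1.71 ± 0.17 in vector cells, 3.26-fold lower, and -1.72 ± 0.17 in shRNA cells, at least 3.18-fold lower when set against the low-signal limit. With the mean of both probe sets all 6 Ggct changes kept their direction and their call at 0.29 to 1.36 in size. Without the 3 outlying vector arrays, 1 of which is the 8.20 above, the rise to 6 h in vector cells was 0.86.

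Gsto1 was also highest at 6 h in irradiated vector cells, at 11.76 to 12.07 against 11.38 to 11.70 at 2 h. The rise was 0.35 ± 0.09 (adjusted p = 0.00446), and 0.25 without the 3 outlying vector arrays, while in shRNA cells the matching change of 0.11 ± 0.09 was not called. Gsto1 fell from 6 to 24 h by 0.67 on the log2 scale in vector and 0.41 in shRNA cells. In untreated shRNA cells it was lower at 24 h than at 2 h (-0.42 ± 0.13, adjusted p = 0.0153). That call was lost without shRNA untreated 2 h replicate 3 (-0.37, adjusted p = 0.0746) or 24 h replicate 3 (-0.36, adjusted p = 0.0817). In untreated vector cells the change was -0.21 ± 0.13 and not called, and without vector untreated 2 h replicate 3 it was -0.44 and called (adjusted p = 0.00239).

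Of the remaining genes, Gpx4 was higher at 24 h than at 6 h by 0.33 in both lines (adjusted p = 0.00285 in vector and 0.00167 in shRNA cells). From 2 to 24 h in untreated vector cells it was also higher by 0.33 ± 0.12 (adjusted p = 0.036). This was not called without vector 2 h replicate 1 or 3 or without vector 24 h replicate 1 or 3 (0.28 to 0.32, adjusted p of 0.0893 to 0.147), nor when only the compared groups were fitted (adjusted p = 0.0775) or with no filter on low signal (adjusted p = 0.0502). Mgst2 rose from 6 to 24 h by 0.68 ± 0.17 in vector cells (adjusted p = 0.000934) and by 0.42 ± 0.16 in shRNA cells (adjusted p = 0.0291), where leaving out shRNA 100 cGy 6 h replicate 3, 100 cGy 24 h replicate 1, 10 cGy 6 h replicate 2 or 3, or 10 cGy 24 h replicate 2 ended the call (0.35 to 0.41, adjusted p of 0.0528 to 0.0916). Its change from 2 to 6 h in vector cells was -0.30 ± 0.16, which became -0.44 and called without vector 10 cGy 2 h replicate 1 (adjusted p = 0.0485) and -0.01 without the 3 outlying vector arrays. Gstt1 was lower at 24 h than at 2 h in untreated shRNA cells by 0.58 on the log2 scale (-0.58 ± 0.18, adjusted p = 0.0183), and the call was lost without 24 h replicate 3 (-0.38, adjusted p = 0.197) or without 2 h replicate 2 or 3 (adjusted p = 0.0711 and 0.0511).

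Gpx1 and Gpx7 had no call in the 6 comparisons over time. Without shRNA 100 cGy 2 h replicate 3, Gpx1 and Gpx4 were called higher at 6 h than at 2 h in shRNA cells (0.20 and 0.24, adjusted p = 0.044 and 0.035). Without the 4 arrays of raised Gapdh difference these changes were 0.06 and 0.07 and were not called (adjusted p = 0.657 and 0.635). Gpx7 was called lower at 24 h than at 6 h in shRNA cells without 10 cGy 6 h replicate 2 or 10 cGy 24 h replicate 2 (-0.38 and -0.39), at signals of 3.69 to 4.69, on both sides of the low-signal limit. Whether the course after irradiation differed between the lines was not tested as a change over time.

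**Figure D3:**
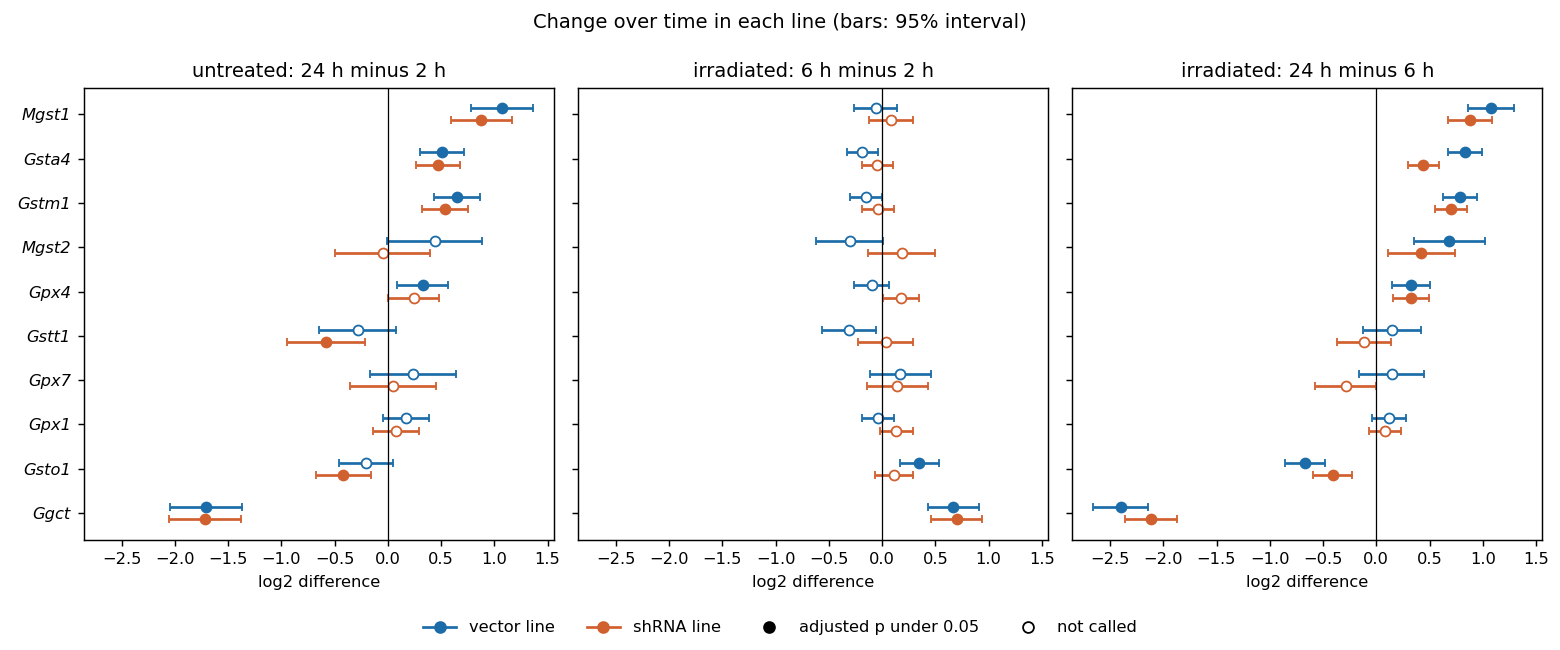
Log2 change over time (x axis) of each of the 10 genes (y axis) in vector and shRNA cells, for untreated cells from 2 to 24 h and for irradiated cells, both doses averaged, from 2 to 6 h and from 6 to 24 h. Points are fitted differences, bars are 95% intervals and filled points are called; Mgst1, Gsta4 and Gstm1 lie to the right of 0 and Ggct far to the left in both panels that end at 24 h.

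Some of these genes had similar or opposite courses within each line, and others did not. Over the 16 groups, after subtracting the mean of each line, Pearson's r was 0.98 between Gstm1 and Mgst1, 0.97 between Gsta4 and Gstm1 and 0.94 between Gsto1 and Ggct. It was -0.96 between Gstm1 and Ggct and -0.94 between Mgst1 and Ggct. Gpx1 and Gpx4 had r = 0.91. Gpx7 had values between -0.17 and 0.17 with all 9 other genes, and Gstt1 between -0.40 and 0.34. The groups share arrays and time points across genes, so these values describe the same 47 arrays. They were not computed for each line alone or for all pairs of tested genes.

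No effect of dose was detected on any of the 10 genes at the times that have untreated cells. At 2 h, 0 of the 10 were called after 10 cGy (against 0% of all tested genes in vector and 0.0115% in shRNA cells) or after 100 cGy (against 0.0461% and 0.0231%). At 24 h, 0 of the 10 were called after 10 cGy (against 0.0115% in vector and 0% in shRNA cells) or after 100 cGy (against 0.0922% and 0.161%). Few genes of any kind were called in these comparisons. By limma at an unadjusted p under 0.05, 88 to 987 genes of all tested passed in each. Of the 80 estimates for the 10 genes, 78 were within 0.5 of 0 on the log2 scale, and 4 had an unadjusted p under 0.05.

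Mgst2 had the largest of these estimates. In shRNA cells at 24 h it read 4.64, 4.38 and 4.57 without treatment, 4.99, 5.16 and 4.86 after 10 cGy and 5.15 to 5.25 after 100 cGy. Both irradiated groups lay above the untreated one, and they overlapped each other narrowly. The difference from untreated cells was 0.47 (95% interval 0.03 to 0.92, adjusted p = 0.984) after 10 cGy and 0.67 (0.23 to 1.12, adjusted p = 0.548) after 100 cGy. In vector cells the matching values were 8.66, 8.28 and 8.72, then 8.67 and 8.73, then 8.47, 8.75 and 8.54, which overlap. Fitting only the compared groups made the 100 cGy difference in shRNA cells a call (adjusted p = 0.0213), the only such change among the 80.

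Ggct in shRNA cells at 24 h read 4.69, 4.13 and 4.08 without treatment and 4.89, 4.77 and 4.79 after 100 cGy, a difference of 0.52 (0.18 to 0.86, adjusted p = 0.545) close to the bottom of the scale. Gstt1 in shRNA cells at 2 h read 5.64, 5.83 and 5.75 without treatment and 5.31, 5.27 and 5.47 after 10 cGy (-0.39, interval -0.75 to -0.03, adjusted p = 0.998). After 100 cGy its values were 5.45, 5.11 and 5.98 and overlapped the untreated ones.

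**Figure D4:**
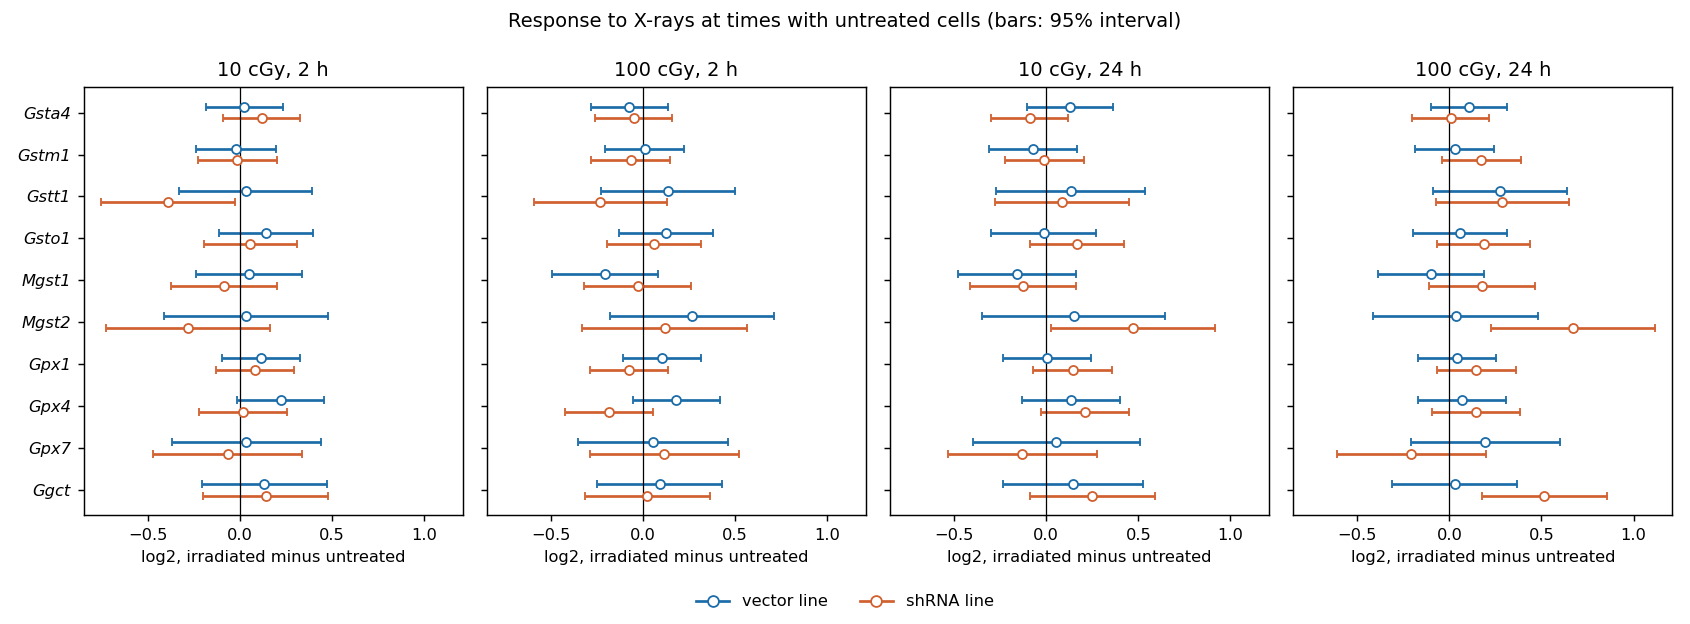
Log2 difference between irradiated and untreated cells (x axis) for each of the 10 genes (y axis) at 10 and 100 cGy and at 2 and 24 h, in vector and shRNA cells. Points are fitted differences and bars 95% intervals; all points are open because none was called, and Mgst2 and Ggct in shRNA cells at 24 h after 100 cGy lie farthest right.

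At 6 h the irradiated cells could be set only against the mean of untreated 2 and 24 h cells of the same line, so dose and time cannot be told apart there. In vector cells 5 of the 10 genes were called after 10 cGy (against 17.1% of all tested genes) and 5 after 100 cGy (against 18.4%). In shRNA cells the counts were 4 (against 17.5%) and 5 (against 15%). Ggct was higher in all 4 comparisons, by 1.55 to 1.73, and Gsto1 was higher in all 4, by 0.37 to 0.68. Gstm1 and Mgst1 were lower in all 4, and Gsta4 was lower in 3, the exception being shRNA cells after 10 cGy (-0.16 ± 0.09, adjusted p = 0.233). All 5 of these genes also changed with time.

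Against untreated 2 h cells alone, 5 of these 19 calls were left, those of Ggct in all 4 comparisons (0.69 to 0.87) and that of Gsto1 in vector cells after 100 cGy. Against untreated 24 h cells alone there were 21 calls, which added Gsta4 in shRNA cells (-0.40, adjusted p = 0.00362) and Mgst2 in vector cells (-0.72, adjusted p = 0.0118), both after 10 cGy. Over the 4 comparisons Ggct was then higher by 2.41 to 2.59 and Mgst1 lower, with differences from -1.24 to -0.85. In shRNA cells after 10 cGy, leaving out 6 h replicate 1, which has the highest Gapdh difference, ended the calls of Gstm1 (-0.16, adjusted p = 0.333) and Mgst1 (-0.27, adjusted p = 0.216). The mean of probe sets ended these 2 calls as well (-0.02 for Gstm1 and -0.20 for Mgst1), and that of Gstm1 after 100 cGy (-0.17, adjusted p = 0.0717). Fitting only the compared groups ended the calls of Gstm1 in shRNA cells after 10 cGy (adjusted p = 0.0933), of Gsto1 in vector cells after 10 cGy (0.061) and of Gsta4 in vector cells after 100 cGy (0.0611). The Gstm1 call in shRNA cells after 10 cGy was also lost without untreated 2 h replicate 1 or 24 h replicate 1 (adjusted p = 0.0657 and 0.0589). The Gsto1 call in shRNA cells after 10 cGy was lost without 6 h replicate 2 or 3 (adjusted p = 0.0807 and 0.118). After 100 cGy in shRNA cells the calls of Gsta4 (without 6 h replicate 1 or 3, adjusted p = 0.0574 and 0.0806), Gsto1 (without 6 h replicate 2, 0.0678) and Mgst1 (without 6 h replicate 3, 0.134) were lost in the same way. Mgst2 after 10 cGy in vector cells, at -0.50 ± 0.19, was not called (adjusted p = 0.0652), and was called without untreated 24 h replicate 2 (0.0411), without the 3 outlying vector arrays (0.0219) or with only the compared groups fitted (0.026).

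The response to radiation was compared between the lines directly. None of the 10 genes was called for 10 cGy at 2 h (against 0.0115% of all tested genes), at 6 h (1.64%) or at 24 h (0.0115%), or for 100 cGy at 2 h (0.0115%), at 6 h (1.04%) or at 24 h (0.0807%). By limma, 5 of these 60 estimates had an unadjusted p under 0.05, while 106 to 1091 of the 8675 tested genes passed that limit in each comparison. The largest of the 60 estimates was that of Mgst2 at 24 h after 100 cGy (0.64, interval 0.01 to 1.27, adjusted p = 0.997). Gsta4 at 6 h after 10 cGy had the smallest adjusted p (0.37, interval 0.11 to 0.62, adjusted p = 0.161), and it was called without vector untreated 2 h replicate 3 (0.43, adjusted p = 0.0434). With 100 cGy set against 10 cGy over both lines, 0 of the 10 genes were called at 2 h (against 0.0346%), at 6 h (0.0807%) or at 24 h (0.115%), and all 30 estimates lay between -0.19 and 0.31. None of these 30 had an unadjusted p under 0.05, against 217 to 358 of all tested genes in each comparison.

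Other genes of the same pathways were taken from lists of names and are compared by counts. Of 11 other transferases and related membrane proteins that were tested, 1 was higher and 5 were lower in untreated shRNA cells, where 24.1% of all tested genes were higher and 24.1% lower, with a median of -0.13 against 0.02 over all tested genes. Ptges, a prostaglandin E synthase, was lower by -1.58 ± 0.13 and Alox5ap, which presents arachidonic acid to 5-lipoxygenase, was higher by 1.58 ± 0.14. Gstt3 (-0.71) and Gstm4 (-0.70), relatives of Gstt1 and Gstm1, were lower. Over time none of the 11 was called lower at 24 h than at 2 h in either line: 4 rose in untreated vector cells (against 13% of all tested genes), among them Mgst3 (1.08 ± 0.32), Gstz1 (0.59 ± 0.17) and Gstm2 (0.54 ± 0.09), and 2 rose in shRNA cells (against 10.1%), Gstt3 (0.40 ± 0.12) and Gstm2 (0.32 ± 0.09).

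Of 17 other peroxidases and thiol reductants, 2 were higher and 6 lower in untreated shRNA cells, a share close to the 48.2% of all tested genes called there. Glrx, glutaredoxin, which uses glutathione to reduce disulfides, was lower by -1.38 ± 0.06, Prdx4 and Prdx2, which are peroxiredoxins, by -0.66 and -0.47, and Sod3, extracellular superoxide dismutase, was higher by 0.69. From 2 to 24 h without radiation, 1 of the 17 was higher and 4 were lower in vector cells, against 25.9% of all tested genes called. In shRNA cells 1 was higher and 3 were lower, against 19.2%. Srxn1, sulfiredoxin, fell in vector (-1.04 ± 0.14) and shRNA cells (-0.73 ± 0.14), as did Gpx8 (-0.58 and -0.42). Glrx fell by 0.85 on the log2 scale in shRNA cells. Of 14 selenoprotein and selenocysteine genes, 1 was higher and 4 lower in untreated shRNA cells, a smaller share than the 48.2%. Selenop, a secreted selenium carrier, was lower by -1.22 ± 0.07, Eefsec and Pstk, which serve selenocysteine incorporation and synthesis, by -0.50 and -0.48, and Txnrd3 was higher by 0.73 ± 0.08.

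Of 18 genes of glutathione synthesis, recycling and breakdown, 3 were higher and 5 lower in untreated shRNA cells, a share close to the 48.2% of all tested genes called, with a median of 0.07. Idh1, which makes cytosolic NADPH, was lower by -1.33 ± 0.09, Cndp2, a dipeptidase, by -1.12 ± 0.07, Abcc1, an exporter of glutathione conjugates, by -0.40 ± 0.05 and Hagh, a glyoxalase, by -0.35 ± 0.07. Gclc and Gss, the enzymes of glutathione synthesis, were higher by 0.24 ± 0.08 and 0.19 ± 0.08; both were named after their values were seen. Of 10 regulators and marker targets, 3 were higher and 5 lower, against the same 48.2%. Ahr was lower by -3.25 ± 0.12, Nqo1, a much used NRF2 target, by -1.70 ± 0.10, Nfe2l2 by -0.78 ± 0.06, and Maff, a small Maf partner, was higher by 0.71 ± 0.16. From 2 to 24 h Nfe2l2 changed by 0.31 ± 0.08 in untreated vector cells, and Gclc, which was lower by -0.73 ± 0.11, and Idh1, which was higher by 1.10 ± 0.13, moved in opposite directions there. Of the 18 genes of glutathione synthesis, recycling and breakdown, 2 were higher and 2 lower there, against 25.9% of all tested genes called.

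The genes most like Mgst2, Gpx7 and Ggct, whose group means had the widest ranges of the 10, were sought over the 16 group means. For Mgst2 they were Limd2, Arhgdib and Stag3 (r = 0.99 each), and for Gpx7 Akr1c13, Pdgfra and Cdh11 (r = 0.997 to 0.998), all 6 lower in the shRNA line. Mgst2 and Gpx7 themselves had r = 0.99 over the group means and 0.12 after subtracting the mean of each line. Cdh11, a cadherin, differed by -6.42 and Pdgfra, a growth factor receptor, by -2.58. Pdgfra is 1 of the 11 mesenchymal markers, whose summed level was 14.37 to 14.80 in vector and 14.72 to 15.19 in shRNA arrays. For Ggct they were Evi2a, Ube2f and Ywhag (r = 0.99 to 0.98). After subtracting the mean of each line, Ggct was most like Trim16 (0.99), Mmd (0.98) and Ugdh, UDP-glucose dehydrogenase (0.98), of which Trim16 was higher in untreated shRNA cells by 0.80 and Mmd differed by -2.34. Likewise Mgst2 was most like Cers4 (0.86), Eci1 (0.86) and Psme1 (0.85), and Gpx7 most like Rpap2 (0.86), Eya3 (0.85) and Tpcn1 (0.85). All these genes were picked for the highest r among all tested genes, so the values only describe these data. Group means of Gpx7 spanned only 0.43 in vector and 0.36 in shRNA cells, with a median group SD of 0.21.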

How the data were processed

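The authors deposited probe set signals on the log2 scale for 47 Affymetrix arrays with 22690 probe sets, summarised by RMA per the submitters' processing notes. Its version and settings are not given in the sources used here. No further scaling was applied. RMA quantile scaling can hide a shift that affects most genes, and it compresses changes near the bottom of the scale. Samples were grouped from the labels by line, dose and time. The replicates are not said to be separate cultures, so p-values measure the spread between these samples, which may be technical.

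Of the probe sets, 64 controls, 691 with several symbols and 1555 with none were left out. The platform annotation names 20380 with 1 symbol; its Entrez numbers were found in the RefSeq table (GRCm38.p6) for 20351, and 0 symbols changed. Of several probe sets per gene, the one of highest average signal stood for it. Genes averaging under 4.35, which are 30% of all, were not tested.

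A single limma fit (version 3.58.1, R 4.3.3) of the 16 group means gave 30 contrasts, tested with eBayes on 31 residual plus 5.68 prior degrees of freedom. P-values are two-sided, and within a contrast all 8675 were adjusted (Benjamini-Hochberg) and called under 0.05. Values after ± are standard errors of fitted differences, and intervals are at 95%. A group left with 1 or 2 arrays is taken to vary like the others. The 10 genes were always named; from each list up to 4 called genes with the largest change, and for the 3 widest-ranging genes the 3 most alike. The members and lists were chosen with earlier results of these data known. Promoter motifs were counted on both strands. The fit was tested on simulated data. Alternatives were another normalization, no filter, the mean of probe sets, fits of the compared groups, a replicate block, other untreated times for 6 h, and leaving out arrays. Single-condition line differences without outlying arrays were added after seeing the data. No 2 arrays were identical.

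Within a line and time, deviations of same-numbered arrays correlated at -0.29 to 0.72 (median 0.23) over 40 pairs, of which 27 were over 0.1. For differently numbered arrays the range was -0.62 to 0.61 (median -0.10) over 80 pairs, of which 18 were over 0.1. Same-numbered arrays were thus more alike within a line and time. Deviations were taken from each group's own mean, so these medians are not independent of each other. Across the lines at the same time the medians were 0.02 and -0.01. The labels do not say what a number shares.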

Additional observations from a re-analysis of the deposited data

How the results depend on the processing

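Of 67 called values of the 10 genes, 21 lost their call under at least 1 alternative and 13 uncalled values gained one. The line difference counts were 10 genes in untreated cells (8 to 10 under the alternatives, 9 to 10 without single arrays) and 10 in irradiated cells (10 throughout). Time counts were 11 in untreated (10 to 12, and 9 to 11 without single arrays) and 17 in irradiated cells (17 to 18, and 16 to 19). Calls for 10 or 100 cGy against untreated at 2 and 24 h rose from 0 to 1 when only the compared groups were fitted (Mgst2) and stayed at 0 without any single array. The 19 calls at 6 h were 17 to 20 without single arrays, 5 against untreated 2 h cells alone and 21 against untreated 24 h cells alone. Against untreated 2 h cells, Mgst1 in shRNA cells turned to 0.030 after 10 cGy and 0.020 after 100 cGy, neither called. Time differs between the compared groups by construction. The difference of responses between lines rose from 0 to 1 with the mean of probe sets (Gstm1 at 6 h after 10 cGy, adjusted p = 0.0258), to 1 without the 3 outlying vector arrays (Gsta4, 0.43, adjusted p = 0.0258), and was 0 to 1 without single arrays. The change of the line difference over time and the comparison of doses stayed at 0 under every alternative run. With the replicate block the counts stayed at 10 and 10 for the line, 11 and 17 for time and 19 at 6 h. They stayed at 0 for the other 4 comparisons. Of the 80 values looked at with the block, the 67 called and the 13 that gained a call elsewhere, 0 changed between called and not called. What a replicate number shares is not given by the labels. The causes were not tested. Signals near the bottom of the scale limit Gpx7, Mgst2 and Ggct in shRNA cells.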

Other observations

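The spread between replicate arrays differed among the 10 genes. The median SD of a group was 0.08 for Gsto1, 0.10 for Gpx1, Gpx4, Gsta4 and Gstm1, 0.12 for Mgst1, 0.16 for Gstt1 and Ggct, 0.20 for Mgst2 and 0.21 for Gpx7. The widest group was vector cells at 2 h after 10 cGy for Mgst2 (SD 0.68), Ggct (0.48) and Mgst1 (0.37), where replicate 3, an outlying array, had the highest signal of the group for all 3 genes.

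Where a gene had further probe sets, their untreated line difference had the same direction for Gpx4 (-0.25), Gsto1 (0.28) and the 3 of Gstm1. The further probe sets of Mgst1 (0.06) and Ggct (0.05) had means of 2.86 and 4.21, under the low-signal limit.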
